A study of Homo sapiens with 18 samples.

Results

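CD24, CD79A, RAG2 and IL7R are 4 genes of the B-lymphoid lineage that were taken, by name, from a table of 20833 genes measured in MEG-01 (labelled Meg01), a leukemia line of human megakaryoblasts. They were chosen by the values of these same libraries, namely their differences between the vectors with ETV6, with its R369W form and with neither, so those differences are described here without a test. ETV6 is an ETS-family transcription factor that represses transcription, and the series title asks about megakaryocyte development defects caused by the R369W change. Unedited cells (genotype label WT) and knockout cells (label ETV6-KO) each received a lentiviral vector that was empty (EV) or carried ETV6 or ETV6-R369W. RNA was taken on day 3 from 18 libraries, 3 in each of the 6 groups, with replicate numbers 2, 3 and 4 (unedited) or 1, 2 and 4 (knockout). Every group, controls included, therefore carried a lentiviral vector. In the sample titles the number follows the cell name, as in Meg01-WT#2. Whether the knockout cells were 1 clone or several, and where ETV6 was edited, were not given in the sources used here. Nor was it given whether the numbers stand for separate cultures, so p-values measure the spread between these libraries. Part of that spread went with the number, except in knockout R369W cells, as described below, and some of it may be technical.

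In B-cell development, the interleukin 7 receptor, whose alpha chain is IL7R, carries survival and growth signals to early precursors. RAG2 works with RAG1 as the recombinase that cuts immunoglobulin gene segments. CD79A pairs with CD79B as the signalling part of the pre-B-cell and B-cell receptors. CD24 is a lipid-anchored surface glycoprotein that is high on B-cell precursors and is also found on many other cells. Germline ETV6 variants are known to cause inherited thrombocytopenia with a predisposition to leukemia, B-cell acute lymphoblastic leukemia among them.

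The count of reads assigned to genes ran from 12577816 to 18927506 per library, and 16 of the 18 libraries held at most 13551477. Levels below are CPM, reads scaled to a common library size by the trimmed mean of M values (TMM), with the standard deviation (SD) over the 3 libraries of a group. ETV6 reads were at 96.3 ± 42.7 CPM (SD, n = 3) in unedited EV cells and 85.1 ± 40.7 CPM (SD, n = 3) in knockout EV cells, with overlapping libraries, so the ETV6 count does not separate the genotypes. The edited position was not given, and this count does not check the genotype label. With the ETV6 vector the mean ETV6 level was 2440.1 and 1969 CPM in unedited and knockout cells, and with the R369W vector 2541 and 1692 CPM. The 6 EV libraries also had more reads that did not align (0.527% to 0.809%) than the 12 others (0.279% to 0.349%), which cannot be told apart from the vector.

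The megakaryocyte gene ITGA2B, which codes for a platelet integrin chain, averaged 847 to 1307 CPM over the 6 groups, while the platelet chemokine gene PF4 had 0 reads in all libraries. Of the genes that define a B cell, MS4A1, which codes for a surface antigen, had 0 reads in every library. The same held for the pre-B-cell receptor genes VPREB1 and IGLL1, for the transcription factor gene EBF1, for DNTT, which codes for the enzyme that adds bases at recombined ends, and for the kinase gene BLK. Other B-lineage genes did have reads: of 60 in the 5 lists described below, 45 had enough reads to be tested. Of the 4 markers MS4A1, CD22, CD79B and PAX5, 3 had 0 reads in unedited EV cells and 1 in knockout R369W cells. The 4 genes were therefore measured in cells without the zero-read transcripts named here at this depth, but not without all B-lineage transcripts. Here 3 reads, the limit that a count of 0 allows, correspond to 0.156 to 0.246 CPM in a library. This limit and the 95% intervals below cover counting error only, since reads copied by PCR and carrying no molecular identifier are not independent. As these are bulk libraries, fewer cells with a transcript and less of it per cell cannot be told apart.

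CD24 (ENSG00000272398) lies on the minus strand of GRCh38 at chr6:106969831-106975627. The stretch just upstream of its most upstream RefSeq start (GRCh38.p14, chr6:106975628-106975877, minus strand, 5′ to 3′) is shown because ETS-family factors bind a GGAA core. The capitals mark GGAA, or TTCC where the core is on the other strand.
CD24 upstream: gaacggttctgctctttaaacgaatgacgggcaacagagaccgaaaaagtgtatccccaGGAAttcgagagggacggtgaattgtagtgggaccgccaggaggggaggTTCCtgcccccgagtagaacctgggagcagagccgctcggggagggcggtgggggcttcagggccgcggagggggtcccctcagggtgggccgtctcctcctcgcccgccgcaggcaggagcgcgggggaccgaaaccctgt
It holds 2 such matches, and the 300-base windows of its other RefSeq starts hold 1 and 4. GGAA on either strand was found in 95.5% of all 35116 RefSeq promoter windows of 300 bases, so its presence does not set a gene apart.

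CD24 was the most abundant of the 4 genes. In unedited cells it was at 330.1, 284 and 133 CPM in EV replicates 2, 3 and 4, at 53.7, 34.8 and 36.9 CPM with ETV6, and at 571, 526 and 308 CPM with R369W. All 3 ETV6 libraries lay below every other unedited library, while the highest EV library lay above the lowest R369W library. In knockout cells it was at 663, 621 and 604 CPM in EV replicates 1, 2 and 4, at 102, 98.3 and 138 CPM with ETV6, and at 616, 507 and 671 CPM with R369W. Again the ETV6 libraries stood apart at the low end, and the EV and R369W libraries were mixed.

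The mean level of CD24 was 5.96-fold lower with ETV6 than with EV in unedited cells and 5.59-fold lower in knockout cells. With R369W it was 1.88-fold the EV mean in unedited cells and 0.950-fold in knockout cells, with overlapping libraries both times. The knockout difference, log2 -0.073, turned to 0.033 without R369W replicate 2. R369W libraries were 11.2-fold above ETV6 libraries in unedited cells and 5.31-fold in knockout cells. The lowest group mean was 41.8 ± 10.4 CPM (SD, n = 3), in unedited ETV6 cells, and the highest was 629 ± 30.1 CPM (SD, n = 3), in knockout EV cells. In the order of the 6 means, the libraries of unedited ETV6 did not overlap those of knockout ETV6, the next group up, and each later pair of neighbours overlapped. CD24 has closely related copies in the genome, so reads of these copies could be counted for it.

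CD79A (ENSG00000105369) lies on the plus strand of GRCh38 at chr19:41877120-41881372. The part of its RefSeq promoter window that no GENCODE exon covers (GRCh38.p14, chr19:41877029-41877119, plus strand, 5′ to 3′) has GGAA and TTCC in capitals as for CD24.
CD79A upstream: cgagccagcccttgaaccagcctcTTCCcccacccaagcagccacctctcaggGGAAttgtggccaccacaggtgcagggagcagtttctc
This stretch holds 2 matches and the whole 300-base window 3, the median over all windows being 3.

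CD79A had almost no reads in unedited cells: 3, 3 and 7 in EV replicates 2, 3 and 4, 2, 0 and 3 with ETV6, and 5, 1 and 8 with R369W. These are 0.227, 0.227 and 0.431 CPM with EV, 0.164, 0 and 0.226 CPM with ETV6, and 0.410, 0.0792 and 0.621 CPM with R369W. The R369W libraries spanned those of both other groups, and the highest ETV6 library was level with the lowest EV library. In knockout cells CD79A was at 15.5, 10.4 and 9.42 CPM in EV replicates 1, 2 and 4, at 0.453, 0.384 and 0.595 CPM with ETV6, and at 1.08, 0.843 and 1.41 CPM with R369W. These 3 groups did not overlap, and the EV libraries were far above both others.

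The mean level of CD79A in knockout cells was 24.7-fold lower with ETV6 than with EV (19 against 557 reads) and 10.6-fold lower with R369W than with EV (44 reads). R369W libraries were 2.33-fold above ETV6 libraries there. CD79A was thus the one of the 4 genes whose knockout R369W libraries did not overlap its knockout EV libraries. In unedited cells the ETV6 mean was 2.27-fold below the EV mean, but this rests on 5 against 13 reads, and the ratio of scaled reads of 0.424 had a 95% interval from 0.118 to 1.27, so no difference was detectable at this depth. R369W was 1.25-fold the EV mean (95% interval of the read ratio 0.531 to 2.82) and 2.85-fold the ETV6 mean (0.979 to 10.2) in unedited cells; its log2 difference from EV, 0.30, turned to -0.29 without R369W replicate 4. The group means ran from 0.130 ± 0.117 CPM (SD, n = 3) in unedited ETV6 cells to 11.8 ± 3.25 CPM (SD, n = 3) in knockout EV cells. Unedited EV, unedited R369W and knockout ETV6, in that order, were neighbours with overlapping libraries.

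RAG2 (ENSG00000175097) lies on the minus strand of GRCh38 at chr11:36575574-36598279. The exon-free part of its RefSeq promoter window (GRCh38.p14, chr11:36598280-36598486, minus strand, 5′ to 3′) is shown for contrast with the other genes, since its 300-base window holds no GGAA on either strand and so has no capitals.
RAG2 upstream: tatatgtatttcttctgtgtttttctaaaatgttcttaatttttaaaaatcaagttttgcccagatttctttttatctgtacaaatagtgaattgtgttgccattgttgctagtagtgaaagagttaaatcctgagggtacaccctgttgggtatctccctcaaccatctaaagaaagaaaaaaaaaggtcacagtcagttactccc
A window without these letters says nothing of sites elsewhere at the gene.

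RAG2 in unedited cells was at 0.529, 0.910 and 0.308 CPM in EV replicates 2, 3 and 4, at 0.737, 0.453 and 0.151 CPM with ETV6, and at 3.28, 2.93 and 2.09 CPM with R369W. The EV and ETV6 libraries were mixed at the low end, and every R369W library was higher. In knockout cells it was at 10.3, 7.39 and 6.74 CPM in EV replicates 1, 2 and 4, at 3.09, 1.61 and 2.01 CPM with ETV6, and at 8.78, 6.66 and 13.4 CPM with R369W. There the EV and R369W libraries were mixed at the high end, and every ETV6 library was lower.

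The RAG2 mean with R369W was 4.76-fold above EV in unedited cells (104 against 24 reads) and 1.18-fold the EV mean in knockout cells (381 against 383 reads). ETV6 was 3.64-fold below EV in knockout cells. In unedited cells the ETV6 mean was 1.30-fold below the EV mean (17 against 24 reads), the libraries overlapped, and the fitted log2 difference of -0.37 turned to 0.099 without EV replicate 3 and to 0.044 without ETV6 replicate 4. The knockout difference between R369W and EV, log2 0.23, turned to -0.079 without R369W replicate 4. R369W was above ETV6 by 6.19-fold in unedited cells and by 4.29-fold in knockout cells. The means ran from 0.447 ± 0.293 CPM (SD, n = 3) in unedited ETV6 cells to 9.60 ± 3.42 CPM (SD, n = 3) in knockout R369W cells. In that order, the libraries of unedited ETV6 overlapped those of unedited EV, those of knockout ETV6 overlapped unedited R369W, and those of knockout EV overlapped knockout R369W, with no overlap between these 3 pairs of neighbours. Exons of RAG2 overlap those of RAG1, its recombinase partner (2 to 14 reads per library), and of C11orf74 (60 to 184 reads per library) on the other strand. The sources used here do not state the strand setting of the counting, so reads of overlapping exons may be shared.

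IL7R (ENSG00000168685) lies on the plus strand of GRCh38 at chr5:35852695-35879603. The exon-free part of its RefSeq promoter window (GRCh38.p14, chr5:35856688-35856848, plus strand, 5′ to 3′) is shown because it is the densest in GGAA and TTCC, again in capitals. It is upstream of the RefSeq start but inside the GENCODE span of the gene given above, whose start lies further upstream.
IL7R upstream: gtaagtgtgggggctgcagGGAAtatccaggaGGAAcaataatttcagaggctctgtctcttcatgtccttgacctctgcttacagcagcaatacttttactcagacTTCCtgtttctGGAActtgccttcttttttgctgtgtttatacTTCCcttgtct
It holds 5 matches and the 300-base window 7, a number that 8.29% of all windows reach. Another 4, longer ETS-type motifs were also counted on both strands in the windows of the 4 genes and not found in any: CCGGAAGT, present in 4.14% of all windows, CGGAAG (19.5%), GAGGAAGT (2.59%) and GGAAGGAA (3.67%), each of which contains a GGAA core. A match is a description of the sequence and not a measured site.

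IL7R in unedited cells was at 0.529, 0.531 and 1.17 CPM in EV replicates 2, 3 and 4, at 0.573, 0.453 and 0.302 CPM with ETV6, and at 3.53, 2.61 and 4.34 CPM with R369W. As for RAG2, EV and ETV6 were mixed and each R369W library was higher. In knockout cells it was at 4.43, 2.28 and 4.98 CPM in EV replicates 1, 2 and 4, at 2.11, 0.537 and 2.08 CPM with ETV6, and at 2.23, 4.67 and 3.64 CPM with R369W. Every ETV6 library was below the others, the gap to the lowest R369W library being small, and EV and R369W were mixed.

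The IL7R mean with R369W was 4.70-fold above EV in unedited cells (132 against 33 reads) and 0.901-fold the EV mean in knockout cells, where log2 -0.15 turned to 0.060 without EV replicate 4 and to 0.090 without R369W replicate 1. ETV6 was 2.47-fold below EV in knockout cells, and 1.68-fold below it in unedited cells with overlap. On the fitted log2 scale the unedited differences from EV moved most with EV replicate 4, which held 19 of the 33 EV reads: without it the ETV6 difference was -0.26 in place of -0.76 and the R369W difference 2.70 in place of 2.21. R369W was above ETV6 by 7.90-fold in unedited cells and by 2.23-fold in knockout cells. The IL7R means ran from 0.443 ± 0.136 CPM (SD, n = 3) in unedited ETV6 cells to 3.90 ± 1.42 CPM (SD, n = 3) in knockout EV cells. The 3 groups at the top, unedited R369W, knockout R369W and knockout EV, overlapped as neighbours and did not overlap knockout ETV6, the next group down.

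**Figure D1:**
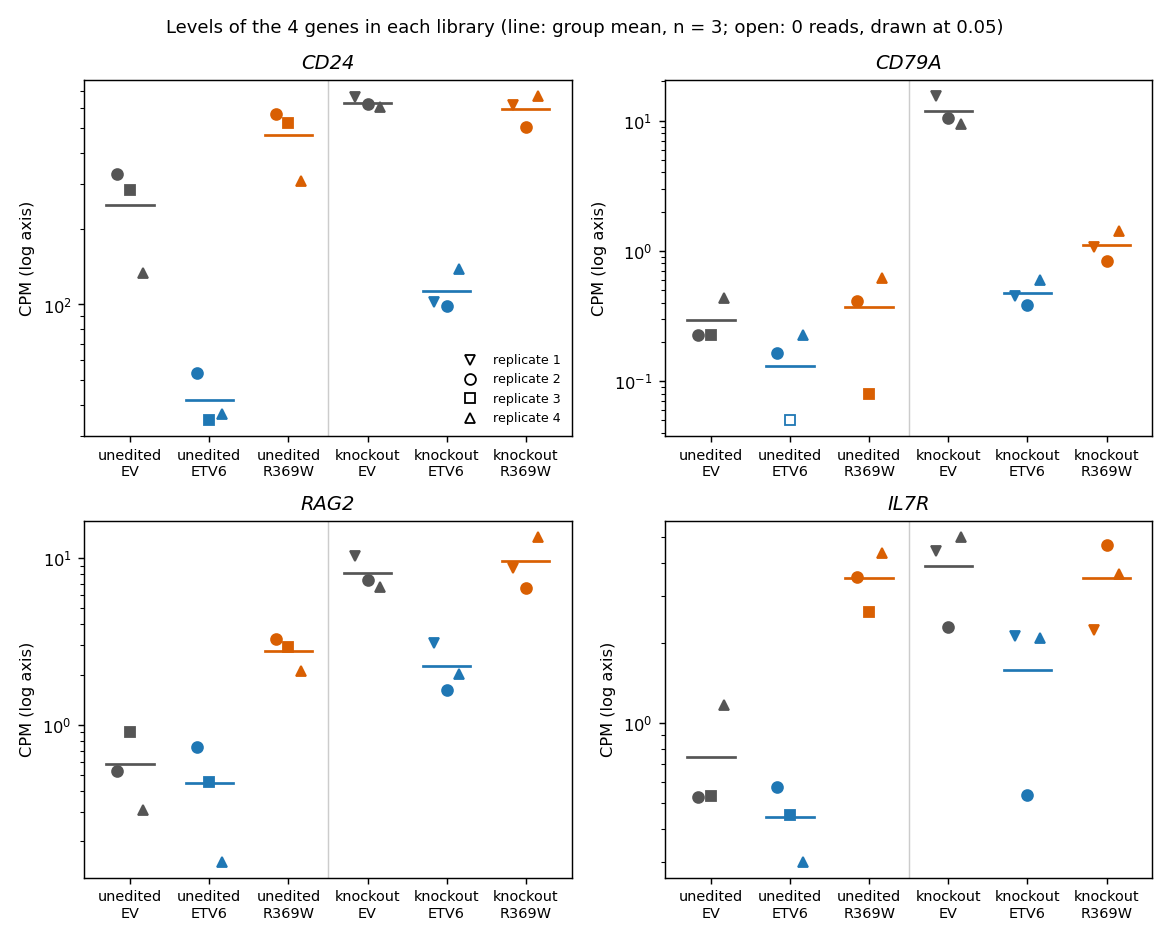
Levels of CD24, CD79A, RAG2 and IL7R in CPM on a log axis, by genotype and vector; each point is a library, its shape the replicate number, and each line the mean of 3 libraries. The 1 CD79A library with 0 reads is an open point drawn at the foot of its panel, and in knockout cells the CD79A points of R369W lie well below those of EV while those of CD24, RAG2 and IL7R mix with EV.

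Set side by side, all 4 genes had their lowest mean in unedited ETV6 cells. As a percent of the knockout EV mean, knockout R369W cells were at 118% for RAG2 and 90.1% for IL7R, were close to 100% for CD24 (the 0.950-fold above), and were at 9.43% for CD79A. Knockout ETV6 cells were at 17.9% for CD24, 4.05% for CD79A, 27.5% for RAG2 and 40.5% for IL7R. Relative to the unedited EV mean, the add-back of ETV6 to knockout cells gave 0.452-fold for CD24, 1.62-fold for CD79A, 3.84-fold for RAG2 and 2.12-fold for IL7R. CD24 was thus below the unedited EV mean after add-back, and the other 3 above it. The knockout ETV6 and unedited EV libraries overlapped for CD24, CD79A and IL7R, however, and stood apart for RAG2 alone. For CD79A the 2 means rest on 19 and 13 reads. These comparisons within a genotype share their EV libraries with each other, and those of ETV6 and R369W share the ETV6 libraries, so they are not separate pieces of evidence. Of the 4 genes, 2 (CD24 and CD79A) were lower without overlap with ETV6 than with EV in unedited cells, as were 4.69% of the 12262 genes tested, but for CD79A the nearest libraries had 3 reads each and differed only by scaling. In knockout cells all 4 were lower without overlap (11.7% of all genes). With R369W, 2 (RAG2 and IL7R) were higher than EV without overlap in unedited cells (3.67% of all genes), and 1 (CD79A) was lower in knockout cells (9.75%). R369W was above ETV6 without overlap for 3 genes in unedited cells, CD79A being the exception (7.32% of all genes), and for all 4 in knockout cells (8.78%). These contrasts chose the genes, so nothing is read from the counts.

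**Figure D2:**
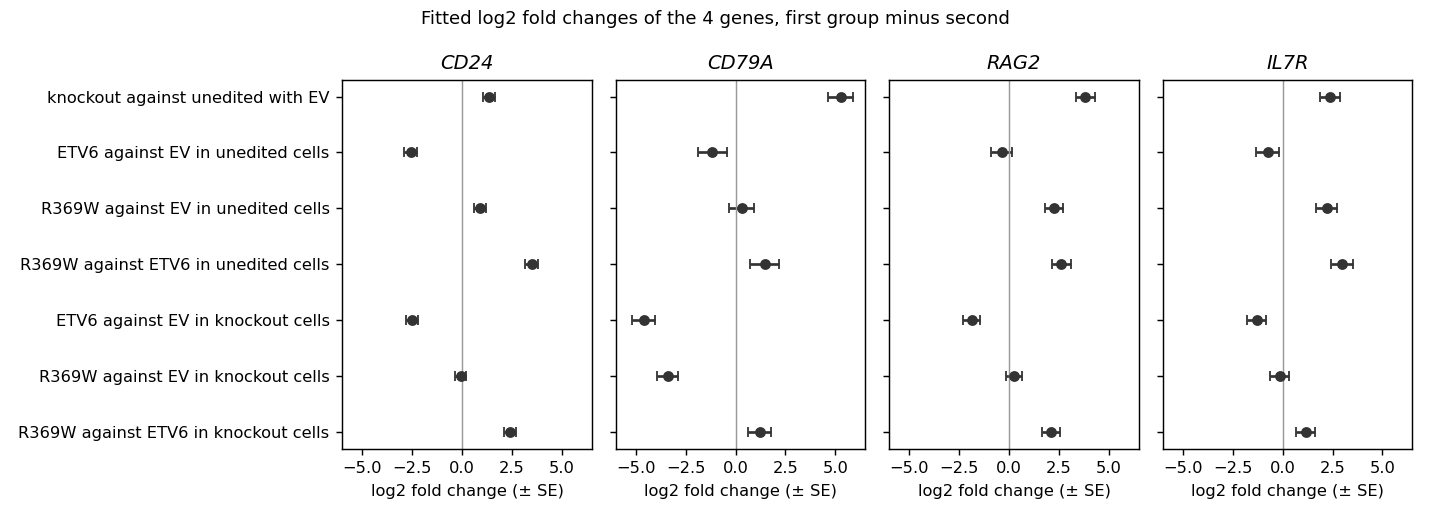
Fitted log2 fold changes of the 4 genes in the 7 comparisons, first-named group minus second, with bars of 1 standard error. For CD79A the R369W against EV difference in knockout cells is near -3.40, while for CD24, RAG2 and IL7R it is near 0.

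The comparison of knockout with unedited cells, both with EV, asks how the genes differ without added ETV6, and it is the one in which the 4 genes were tested. It shares its EV libraries with the comparisons that chose the genes, so the p-values of the 4 genes are not independent of that choice. CD79A, RAG2 and IL7R did not pass the count filter in a fit of the unedited EV and ETV6 libraries alone. They entered the test through groups where they are higher. All 4 were higher in knockout cells, with no overlap between the 3 and 3 libraries, in edgeR's quasi-likelihood test at an adjusted p under 0.05; over all genes tested 531 passed (4.33%), and 3.31% were higher. Non-overlap in this direction held for 12.6% of all genes.

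CD79A showed the largest difference of the 4, from 0.295 ± 0.118 to 11.8 ± 3.25 CPM (SD, n = 3 each), 39.9-fold, with a fitted log2 fold change of 5.26 (standard error, SE, 0.61; adjusted p = 1.42e-04 in edgeR). The ratio of scaled reads was 40.3, with a 95% interval from 23.4 to 76.2. RAG2 went from 0.582 ± 0.304 to 8.15 ± 1.91 CPM (SD, n = 3 each), 14.0-fold (log2 3.81, SE 0.48, edgeR adjusted p = 3.05e-04). Both calls were kept in each of the 12 fits made of this comparison.

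IL7R rose from 0.743 ± 0.369 to 3.90 ± 1.42 CPM (SD, n = 3 each), 5.25-fold (log2 2.36, SE 0.51, edgeR adjusted p = 0.0152). CD24 rose from 249 ± 103 to 629 ± 30.1 CPM (SD, n = 3 each), 2.53-fold (log2 1.34, SE 0.29, edgeR adjusted p = 0.0152). These 2 calls were less firm. The CD24 call was lost without knockout EV replicate 1 (edgeR adjusted p = 0.0537) and in a fit of the 2 groups alone (0.0967). The IL7R call was lost without unedited EV replicate 2 (0.0894) or 3 (0.0744), without knockout EV replicate 1 (0.0543) or 4 (0.0632), and in the fit of the 2 groups alone (0.0690); all of these are edgeR adjusted p-values.

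Libraries that shared a replicate number also shared part of their deviation. In unedited cells, replicate 4 had the highest CD79A level and the lowest RAG2 level with each of the 3 vectors, and the lowest CD24 level and highest IL7R level with EV and with R369W. In knockout cells, replicate 2 had the lowest IL7R level with EV and with ETV6, while with R369W it had the highest. Over all genes, same-numbered unedited libraries deviated together (correlation across genes 0.695 to 0.856), as did knockout EV and ETV6 libraries (0.763 to 0.847). The knockout R369W libraries did not go with their numbers (-0.581 to -0.153): their replicate 1 went with replicate 2 of the other vectors (0.828 to 0.872), 2 with 4 (0.743 to 0.787) and 4 with 1 (0.739 to 0.756). No library was renumbered for this, and comparisons between groups do not use the numbers.

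Compared per length, as CPM per kb of merged exons, CD24 was at 203 ± 9.71 (SD, n = 3) in knockout EV cells, CD79A at 7.84 ± 2.16, RAG2 at 2.33 ± 0.545 and IL7R at 0.643 ± 0.235. CD24 therefore exceeded each of the other 3 genes in every library on this scale. The partner genes did not share these levels. CD79B, the other signalling chain of the receptor, was at 0.580 CPM per kb in knockout EV cells and 0.804 in unedited EV cells, and RAG1 at 0.0448 and 0.0246. IL2RG, the common gamma chain that pairs with IL7R, was at 41.4 and 35.2 CPM per kb.

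**Figure D3:**
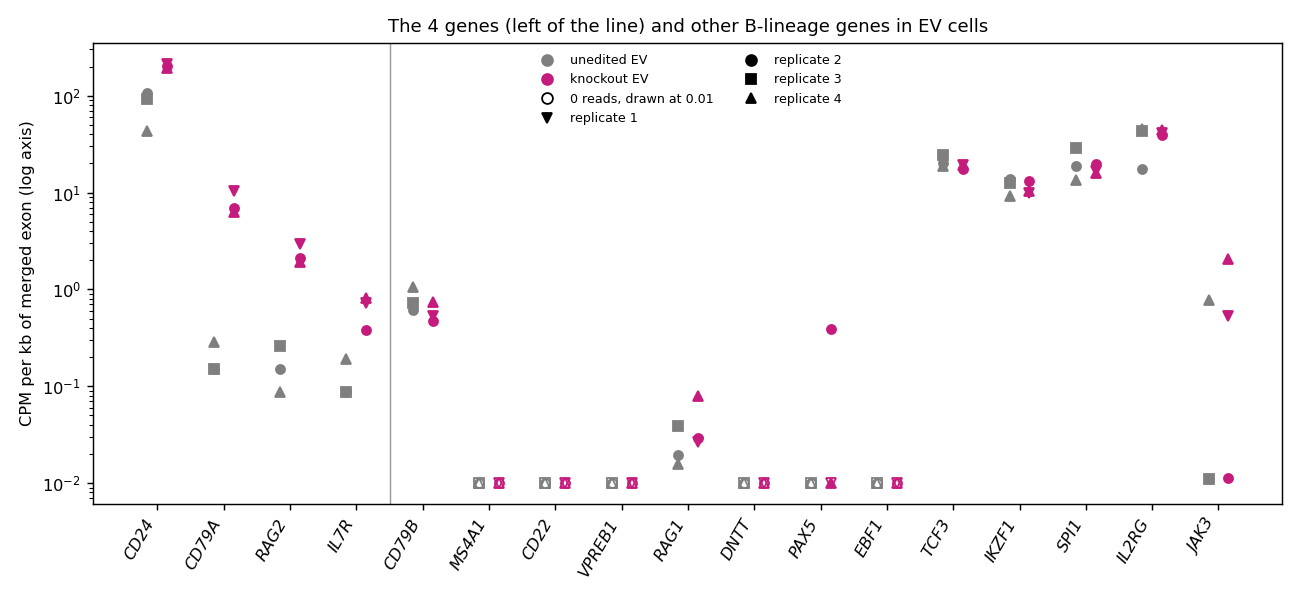
CPM per kb of merged exon, on a log axis, for the 4 genes (left of the line) and other B-lineage genes in the EV libraries of both genotypes; open points are libraries with 0 reads, drawn at the foot. CD24 is at 203 CPM per kb on average in knockout EV cells, and MS4A1, CD22, VPREB1, DNTT and EBF1 are at 0 in all 6 EV libraries.

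The other genes of the pathways were read from 5 lists with 62 genes in all, of which 60 were named in the table and 45 passed the count filter; IGHM and IGKC were not analysed here. A gene can pass that filter through the one group where it is high. The lists were also chosen with earlier results of these data known. Their called shares beside those of all genes, here and below, are therefore a description and not evidence of enrichment. In the knockout against unedited comparison with EV, 4 of the 45 were higher and 0 lower (8.89%, against 4.33% of all genes), and their median log2 fold change was 0.045, against -0.0023 over all genes tested. These were PIK3CD, ETS1, VAV1 and PLCG2.

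PIK3CD, a leukocyte lipid kinase subunit, rose from 10.7 to 40.1 CPM (log2 1.90, SE 0.25, edgeR adjusted p = 3.80e-04). ETS1, a transcription factor of the ETS family, rose from 2.68 to 14.0 CPM (log2 2.36, SE 0.58, adjusted p = 0.0301 in edgeR). VAV1, an exchange factor downstream of immune receptors, rose from 112 to 234 CPM (log2 1.06, SE 0.21, adjusted p = 0.00863 in edgeR), and PLCG2, a phospholipase of the same pathway, from 10.4 to 15.8 CPM (log2 0.61, SE 0.16, adjusted p = 0.0426 in edgeR). The PLCG2 call was lost when any 1 of the 6 libraries was left out, and the ETS1 call in 4 of these 6 fits. PIK3CD was at 37.2 CPM with ETV6 and 52.8 CPM with R369W in knockout cells, and it was not called in any of the 6 comparisons between vectors.

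Between vectors, the same small set of names recurred, and as these comparisons share libraries the recurrences are not independent. The counts that follow come from the fit that does not pair libraries by replicate number. In unedited cells ETV6 lowered 2 of the 45 genes (0.302% of all genes were called), SYK and VAV1, and raised 0. R369W against EV in unedited cells changed 0 of the 45 (0.0245% of all genes called), and 3 with the number as a block, as given below. R369W against ETV6 in unedited cells gave 4 higher and 0 lower (1.2% of all genes called): SYK, VAV1, XRCC5 and PIM1. In knockout cells ETV6 against EV gave 4 lower and 0 higher (1.83%), R369W against EV 0 (0.0571%) and R369W against ETV6 4 higher and 0 lower (1.23%), with the same 4 names as in unedited cells each time. The median log2 fold change of the 45 lay between -0.068 and 0.091 in these 6 comparisons, and that of all genes between -0.014 and 0.0077.

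VAV1 was at 112, 51.7 and 192 CPM with EV, ETV6 and R369W in unedited cells and at 234, 74.0 and 258 CPM in knockout cells. SYK, the kinase that the CD79A chain recruits, was at 85.0, 49.1 and 103 CPM in unedited cells and at 106, 61.2 and 114 CPM in knockout cells. PIM1, a kinase gene induced by STAT5 downstream of the interleukin 7 receptor, was at 464, 238 and 660.1 CPM in unedited cells and at 617, 215 and 575 CPM in knockout cells. In the knockout comparison of ETV6 with EV the edgeR adjusted p was 4.32e-04 for VAV1, 0.00212 for SYK and 5.29e-04 for PIM1. XRCC5, a DNA end-joining subunit, was also lower there, at 537 against 686 CPM (log2 -0.35, SE 0.06, adjusted p = 0.00731 in edgeR), a call that was lost without ETV6 replicate 1 (0.0505) or 2 (0.0502). In unedited cells the VAV1 fall with ETV6 (log2 -1.11, SE 0.21, edgeR adjusted p = 0.0402) was lost when any 1 of 5 libraries was left out, EV replicates 2 and 3 and each ETV6 library, with edgeR adjusted p-values up to 0.273. The SYK fall (log2 -0.79, SE 0.12, edgeR adjusted p = 0.00894) was lost without EV replicate 3 (0.0794) or ETV6 replicate 2 (0.0686), again as edgeR adjusted p-values. XRCC5 was higher with R369W than with ETV6 by log2 0.30 and 0.32 in unedited and knockout cells, and both calls were lost in 4 fits that left out 1 library: ETV6 replicate 2 or 3 or R369W replicate 2 or 4 in unedited cells, and ETV6 replicate 1 or 2 or R369W replicate 2 or 4 in knockout cells. They were also lost with upper-quartile scaling (edgeR adjusted p = 0.0731 and 0.0653) and with no count filter (0.0660 and 0.0601). The interaction of vector and genotype was past the edgeR threshold in 0 of 39 tests on 13 named genes other than the 4, of which 5 had an unadjusted p under 0.05. These 5 were the R369W against EV difference of FCER1G (knockout minus unedited, log2 -1.26), VAV1 (-0.63), PIM1 (-0.61) and CD33 (-0.46), and the ETV6 against EV difference of ITGAM (-0.70). The fit did not pair libraries by number, so the lack of calls does not show that the vector differences were alike in both genotypes.

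With the replicate number as a block, since the numbers paired these libraries, the calls among the 45 genes went from 2 to 10 (0 higher, 10 lower) for ETV6 against EV in unedited cells, from 0 to 3 for R369W against EV, and from 4 to 16 (12 higher, 4 lower) for R369W against ETV6. In the 6 knockout EV and ETV6 libraries they went from 4 to 16 (3 higher, 13 lower). Calls over all genes rose as well in these fits, to 956, 251, 1980 and 2904. These fits applied the count filter anew to their own libraries, so some of the 45 genes may not have been tested in them. The numbers are counts of calls and not shares, and nothing is read from the list counts beside those of all genes. The main fit of the vector comparisons, and the fits that left out a library, did not use this pairing.

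**Figure D4:**
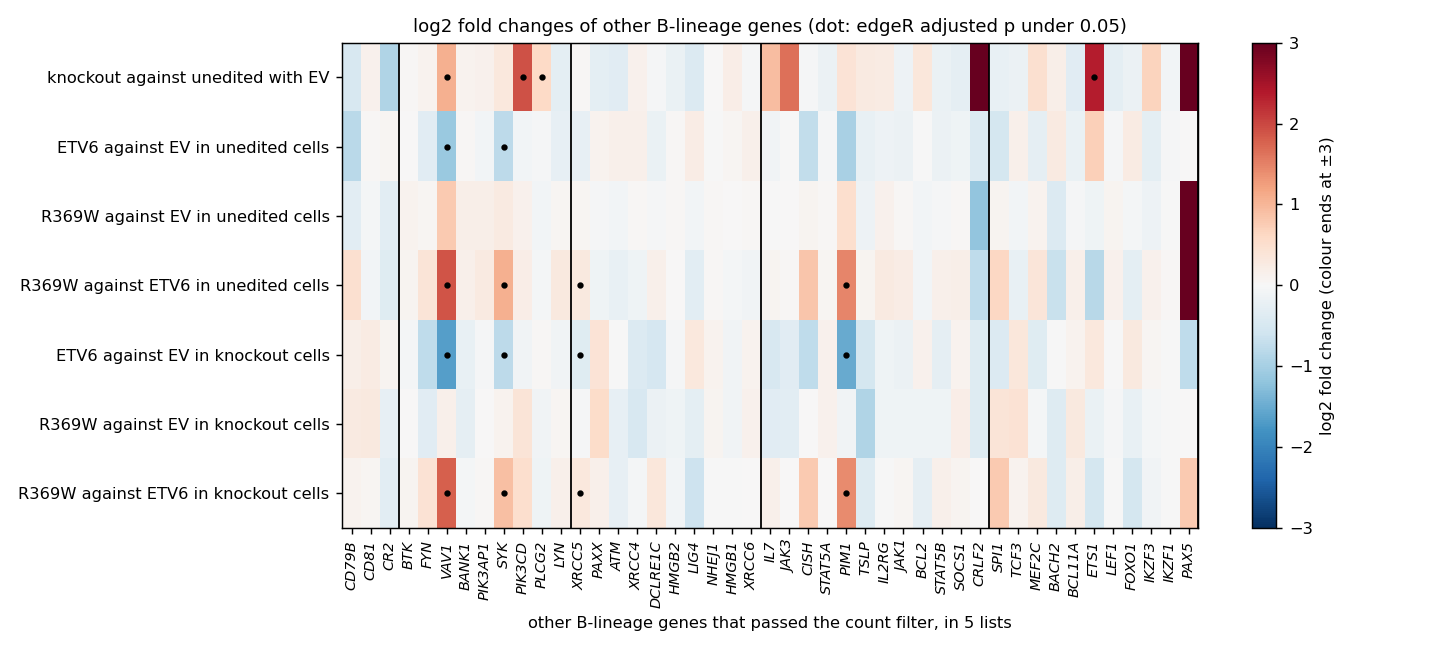
Fitted log2 fold changes of the other B-lineage genes that passed the count filter, in 5 lists (columns) and 7 comparisons (rows); a dot marks an edgeR adjusted p under 0.05. Dots fall on VAV1 and SYK in each comparison with ETV6, and on XRCC5 and PIM1 in these except ETV6 against EV in unedited cells. In knockout against unedited with EV they fall on PIK3CD, ETS1, VAV1 and PLCG2. The PAX5 colours rest on very few reads, 0 of them in unedited EV cells.

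By list, the B-cell receptor and pre-B-cell receptor genes had 3 of 10 members tested and 0 called in all 7 comparisons, with at most 1 at an unadjusted p under 0.05 in edgeR. The signalling list held SYK, VAV1, PIK3CD and PLCG2 among 9 tested. The V(D)J recombination list held XRCC5 among 10 tested, the interleukin 7 signalling list PIM1 among 12, and the transcription factor list ETS1 among 11. SIGLEC10 and SELP, binding partners of CD24, had 0 calls, and 0 at an unadjusted p under 0.05, in the 7 comparisons; SIGLEC10 was at 0.304 CPM in unedited EV cells and 0.945 CPM in knockout EV cells.

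A further 3 B-lineage genes, singled out after their values were seen, differed widely between libraries of a group. PAX5, the factor that commits cells to the B lineage, had 48 reads in knockout EV replicate 2, 28 in knockout ETV6 replicate 2 and 47 in knockout R369W replicate 1, and at most 3 reads in each of the 15 other libraries. JAK3, the kinase that binds the common gamma chain, had 87, 71 and 72 reads in replicate 4 of the unedited EV, ETV6 and R369W groups and at most 1 read in the 6 other unedited libraries. IKZF3, a zinc finger factor of lymphoid cells, had 147, 102 and 94 reads in those 3 libraries and 4 to 28 in the 6 others. In knockout cells the highest JAK3 and IKZF3 counts were in replicate 4 of EV (185 and 181 reads) and ETV6 (154 and 188 reads) and in replicate 2 of R369W (162 and 186 reads). None of CD24, CD79A, RAG2 and IL7R was at the highest level of its group in any of the 3 libraries with 28 to 48 PAX5 reads. IL7R was at the lowest level of its group in all 3, at 2.28, 0.537 and 2.23 CPM in the order above. CD79A in knockout EV replicate 2 was at 10.4 CPM, between the other 2 libraries of its group. A relation of PAX5 to the 4 genes was not tested.

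**Figure D5:**
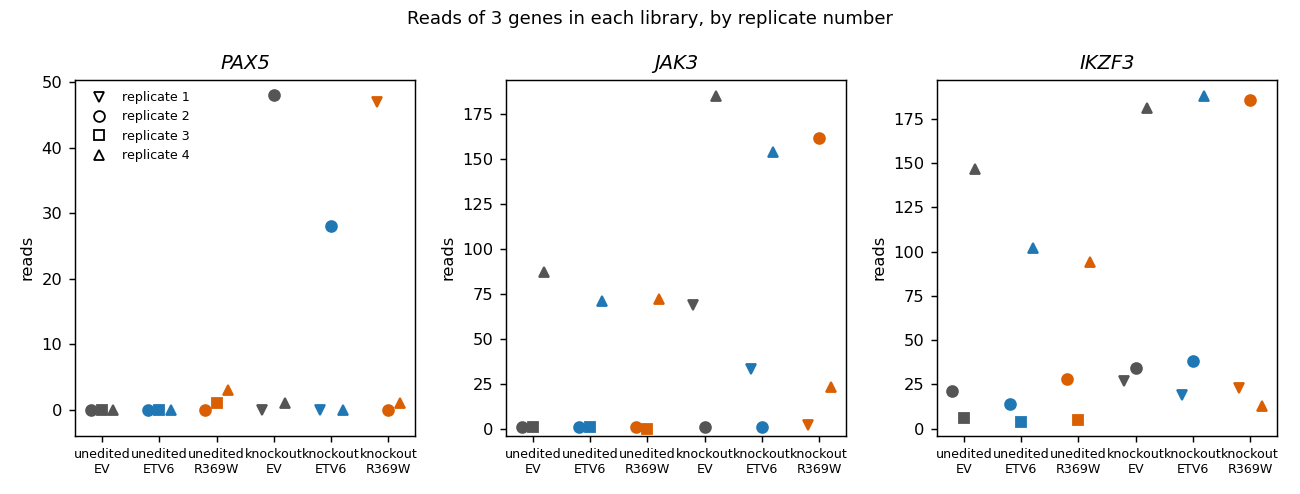
Reads of PAX5, JAK3 and IKZF3 in each of the 18 libraries, with the replicate number as the shape of the point. PAX5 reads are concentrated in 3 knockout libraries of 28 to 48 reads, and JAK3 and IKZF3 are high in replicate 4 of each unedited group.

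Markers of other cell types moved with some of the same comparisons. Of 12 myeloid markers 7 were tested; 3 were higher (CEBPA, CSF3R and CTSG) and 1 lower (LYZ) in knockout against unedited EV cells, CEBPA rising from 0.948 to 12.6 CPM. CD33 and ITGAM, myeloid surface genes, fell with ETV6 and were higher with R369W than with ETV6 in both genotypes, FCER1G joining them in unedited cells, and the summed myeloid level ran from 194 to 238 CPM in the ETV6 libraries and from 425 to 734 CPM in the others. ELANE was at 0 in all libraries. The ITGAM fall with ETV6 in unedited cells was lost without EV replicate 2 or 3 or any 1 of the ETV6 libraries (edgeR adjusted p up to 0.148). Of 11 erythroid markers GYPB alone was called, once, as lower in knockout EV cells, where the summed level of the 11 was 366 to 1284 CPM against 1441 to 2738 CPM in unedited EV cells. Of 12 megakaryocyte markers 9 were tested and GP6 alone was called, once, as higher with R369W than with ETV6 in unedited cells, a call lost without ETV6 replicate 2 (edgeR adjusted p = 0.0592) or 3 (0.0525); their summed level was 857 to 1436 CPM in unedited and 1017 to 2015 CPM in knockout libraries. Of 12 T-cell markers 2 were tested and 0 called, 1 of them at an unadjusted p under 0.05 in edgeR in knockout against unedited EV cells; their summed level was 78.1 to 119 CPM in unedited and 104 to 171 CPM in knockout libraries. The B-cell defining markers MS4A1, CD22, CD79B and PAX5 summed to 0.819 to 4.78 CPM in all libraries. The part of these other cell-type genes in the differences of the 4 genes was not tested.

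By likeness of level over the 18 libraries (Pearson correlation of log2 CPM, given as a description, since the libraries fall into 6 groups and share depth and vector), the closest gene to CD24 was PIK3CG at 0.973, followed by SYK, CAMK2G, DCAF12 and KCNK6. For RAG2 it was BIRC7 at 0.957, followed by SUFU, SLC45A3, LPCAT2 and SLC25A41. For CD79A it was FCHSD2 at 0.942, followed by EZH2, DSC3, KCNA2 and BNIP5, and for IL7R it was GP6 at 0.900, followed by LIMD1, VASP, SNRK and SLC10A5. The 4 genes correlated with each other at 0.609 (CD24 with CD79A) to 0.836 (RAG2 with IL7R), and none of them was among the 5 closest to another. FCHSD2, like CD79A, was lower in knockout R369W cells (106 CPM) than in knockout EV cells (252 CPM), whereas BIRC7, like RAG2, was at 47.4 and 45.0 CPM in those groups.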

How the data were processed

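The authors deposited raw counts: whole numbers of reads for each gene in each library. HISAT2, SAMtools, HTSeq and GRCh38 are named, with no tool versions, in the submitters' processing notes; the annotation and strand setting used for counting were not given in the sources used here. TRIzol-extracted RNA went into TruSeq stranded mRNA libraries, per the labels' protocols. Between 34.4% and 41.6% of a library's listed reads were given to no gene and were left out. Symbols were found for 20801 of 20833 gene identifiers by a gene name table and for 31 by GENCODE release 29, the source of positions and merged exon lengths. Promoter windows come from RefSeq on GRCh38.p14, and all 4 genes matched.

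Counts were tested with edgeR 4.0.16 in R 4.3.3: filterByExpr (12262 genes), TMM, 1 mean per group over all 18 libraries, a quasi-likelihood F test, two-sided, and Benjamini-Hochberg adjustment over all genes, with a threshold of 0.05. The standard error is the log2 fold change divided by the square root of F. Ratios of summed reads have exact conditional binomial 95% intervals. The scripts were checked on simulated data. With 3 libraries on each side an exact permutation test has a smallest p of 0.1, and none was used.

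The 4 genes and the gene lists were chosen with earlier results of these data known. Named besides them are ETV6, in each list the 4 or fewer called genes of lowest adjusted p, and for each of the 4 genes the 5 with the highest correlation (prior count 2); a few listed genes are not reported here, and other names are said to be chosen after their values or complete a small count. Pairing by replicate number was read from the labels and checked by correlating deviations from the group means. Alternatives were DESeq2 1.42.0, limma-voom (limma 3.58.1), upper-quartile scaling, no count filter, only the groups compared, each library left out, and replicate blocks; the block on 6 knockout libraries was added after seeing the data.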

Additional observations from a re-analysis of the deposited data

How the results depend on the processing

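The calls of CD79A and RAG2 in knockout against unedited EV cells passed the threshold in each of 12 fits, those of CD24 in 10 and IL7R in 7. The log2 fold changes ranged from 5.01 to 5.64, from 3.49 to 4.27, from 1.04 to 1.59 and from 2.15 to 2.86. The 4 genes have a call only in knockout against unedited EV cells. In the comparisons between vectors, where they were not tested, a value counts as kept if it moved by less than the spread between replicates. Of 332 values of the 4 genes under other settings, 314 kept their direction and were kept in call or in this sense. Another 7 lost the call, 7 changed sign within the spread between replicates, as given above, and 4 moved by more than that spread. The last 4 were the 2 for IL7R given above and CD79A in ETV6 against EV in unedited cells, -0.59 without ETV6 replicate 3 and -1.80 without ETV6 replicate 4, in place of -1.16. Below 20 reads a group, as for CD79A in unedited cells, depth limits what can be told.

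Genes called over the whole table, in the order knockout against unedited with EV, then ETV6 against EV, R369W against EV and R369W against ETV6 in unedited cells, then the same 3 in knockout cells, numbered 531, 37, 3, 147, 224, 7 and 151. DESeq2 gave 893, 91, 13, 287, 401, 195 and 362, and fits of only the 2 groups gave 211, 2, 1, 35, 131, 0 and 73. Limma-voom gave 1 for R369W against EV in unedited cells. Leaving out 1 library gave 246 to 577, 11 to 41, 2 to 6, 90 to 131, 132 to 161, 3 to 11 and 89 to 130. Fits of fewer libraries, the block fits included, applied the count filter anew, so the number of genes tested can differ between fits.

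Among the 45 other B-lineage genes, in the same order, the calls numbered 4, 2, 0, 4, 4, 0 and 4. Leaving out 1 library gave 2 to 3, 0 to 2, 0 to 0, 3 to 4, 3 to 4, 0 to 0 and 3 to 4. In knockout against unedited EV cells the fit of the 2 groups alone gave 1. For ETV6 against EV in unedited cells DESeq2 gave 4, limma-voom 1 and the fit of the 2 groups alone 0, and the latter fit gave 2 for R369W against ETV6. In fits of only 2 groups the calls of ETS1, PLCG2 and VAV1 in knockout against unedited cells, of SYK, VAV1, CD33 and ITGAM in ETV6 against EV in unedited cells, of PIM1, XRCC5, GP6 and FCER1G in R369W against ETV6 in unedited cells, and of XRCC5 in the knockout comparisons of ETV6 with EV and with R369W were lost. The PLCG2 call was also lost with no count filter (edgeR adjusted p = 0.0845), and the VAV1 call in ETV6 against EV in unedited cells with limma-voom (limma adjusted p = 0.0658).

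With the replicate block, genes called in unedited cells numbered 956, 251 and 1980, and other B-lineage genes 10, 3 and 16. In knockout cells the replicate block on all 9 libraries gave 97, 0 and 75, and on the 6 EV and ETV6 libraries it gave 2904 genes and 16 B-lineage genes for ETV6 against EV. The 9-library block ended the XRCC5 calls in knockout cells, with edgeR adjusted p-values of 0.0738 for ETV6 against EV and 0.119 for R369W against ETV6. As the knockout R369W libraries did not deviate with their numbers, this block does not pair them, and nothing is read from its lost calls. As a random effect, the block gave adjusted p-values in limma of 0.00434 for CD24, 3.03e-04 for CD79A, 0.00146 for RAG2 and 0.0464 for IL7R in knockout against unedited EV cells, so it changed none of these 4 calls. It used the same numbers, those of the knockout R369W libraries included.

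For ETV6 itself, 3 values, none past the threshold, changed sign. Its log2 difference between knockout and unedited EV cells, -0.18, was 0.24 without unedited EV replicate 4 and 0.16 without knockout EV replicate 2, in a range from -0.47 to 0.24. Its difference between R369W and ETV6 in unedited cells was -0.026 without R369W replicate 3, in a range from -0.026 to 0.19. The cause was not tested for any of these changes.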
